A study of Homo sapiens with 50 samples.

Results

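The 70 hairpins described here target the CHD chromatin remodelling helicases and the subunits that the NuRD complex builds around them. They were every hairpin of the screen that named a single gene called CHD or MTA plus a digit, or MBD3, and they made up 70 of 3443 hairpins in all. Each of 14 genes had 5 hairpins: CHD1 to CHD9, CHD1L, MTA1, MTA2, MTA3 and MBD3. GATAD2A and GATAD2B were also sought by name, and no hairpin named either as its single gene. The screen was made in IMR90 cells, normal human lung fibroblasts that stop dividing after a limited number of doublings (replicative senescence), grown at 3% oxygen. Lentiviruses encoding short hairpin RNAs against chromatin regulators infected 10 plates at a multiplicity of infection of 0.3, each plate receiving a pair of the 5 initial pools. No group was uninfected, and every group came from the same passaged plates, sampled at population doublings (PD) 40, 45, 50, 55 and 60, with PD40 the proliferating start and PD60 the senescent end. The question was which hairpins let their host cells outgrow the others. The knockdown each hairpin achieved was not analysed here.

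CHD proteins use ATP to slide, space or exchange nucleosomes, and they carry a pair of chromodomains next to a helicase-like motor. NuRD joins such a motor, CHD3, CHD4 or CHD5, to the histone deacetylases HDAC1 and HDAC2, with MTA proteins as the scaffold, RBBP4 and RBBP7 as histone-binding subunits, and MBD3 or MBD2 as the methyl-CpG-binding-domain subunit. Loss of NuRD subunits has been reported in fibroblasts from patients with premature ageing.

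Abundance was read as sequence tags per hairpin in genomic DNA. The authors' columns, 1 per population doubling, held 8626437 tags at PD40, 8782622 at PD45 and 8479667 at PD50, then 11505688 at PD55 and 8270745 at PD60. With 1 pooled column per time there was no replicate check and no test, so every difference below compares these columns. Levels are CPM, tags scaled to a column total of 1000000. Log2 changes are of CPM plus 1, later column over PD40, and understate the loss of hairpins that began low. Ratios of CPM carry 95% counting intervals, which cover counting error only. A hairpin at 0 tags was set to a floor of 3 tags in that column, and its fold is a lower bound. All 70 hairpins began with at least 54 tags, so none was lost to the minimum of 10 tags in either column.

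Hairpins against CHD and NuRD genes declined with the rest of the library, and on column totals none was above its PD40 level at PD55 or PD60 (7 were over 2-fold higher at PD60 with TMM factors and 9 with DESeq2 size factors). Together they held 1.06% of tags at PD40, 0.980% at PD45 and 0.369% at PD50, then 0.114% at PD55 and 0.0233% at PD60, which was 91545 tags in the first column and 1924 in the last. The number at 0 tags was 0 at PD40, 1 at PD45 and 11 at PD50, then 21 at PD55 and 34 at PD60. The 34 at PD60 were 48.6% of the 70, and 44.1% of all hairpins were at 0 there. A further 22 had 1 to 9 tags at PD60. At least 10 tags were left for 14 of the 70, where 28.6% of all hairpins had as many, and at least 100 for 4 of the 70, where 13.9% of all had.

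At PD45, 3 of the 70 were over 2-fold higher than at PD40 and 49 over 2-fold lower, where 5.73% and 63.2% of all hairpins were. At PD50, 0 were higher and 60 lower, against 4.94% higher and 81.9% lower in all hairpins. At PD55 the counts were 0 and 67, against 2.92% and 91.7%. At PD60 they were 0 and 70, against 2.28% and 95.3%. These shares were close to the background of the library, and the counts of 0 enriched hairpins after PD45 stand beside backgrounds below 5%. On column totals, 0 of the 70 were over 2-fold higher in the steps between neighbouring columns after PD45. Of all hairpins, 2.22% were from PD45 to PD50, 1.7% from PD50 to PD55 and 5.4% from PD55 to PD60. Steps were not counted under other scalings.

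The median log2 change of the 70 hairpins was -2.27 at PD45, against -1.63 for all hairpins. It was -4.05 against -3.46 at PD50, -5.06 against -4.93 at PD55, and -5.59 against -5.86 at PD60. With hairpins at or under the floor set to it, the PD60 medians were -6.85 for the 70 and -7.12 for all hairpins. The 70 therefore stood lower than the library in the first columns and within 0.27 of it in the last. At PD60 the median hairpin had 1 tag in both lists, so these last medians depend on the pseudocount or floor and on the starting level. The 70 began at a median of 101 CPM and all hairpins at 118, and the part this had was not tested.

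Directions on this scale are relative to a column total that few hairpins came to dominate. With TMM factors the PD60 median of all hairpins moved to -1.87, and with DESeq2 size factors to -2.50. The split of the 70 then became 7 higher and 46 lower with TMM, where 18.6% and 64.8% of all hairpins were, and 9 higher and 48 lower with DESeq2, where 19.4% and 66.7% were. The hairpins that turned to higher under both scalings were 3 against CHD4, 2 against CHD7, 1 against CHD2 and 1 against CHD1. At PD45 the split with TMM was 12 higher and 33 lower, where 18.8% and 35.8% of all hairpins were. Relative to the library's own median the 70 hairpins lay close under each scaling at PD60, their median being 0.27 above it on column totals, 0.01 above it with TMM and -0.05 from it with DESeq2.

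Starting abundance moved with these values. The library median at PD40 was 1019 tags. Of the 31 CHD and NuRD hairpins at or above it, 6 were at 0 at PD60, where 16.9% of all such hairpins were. Of the 39 below it, 28 were at 0, where 71.4% of all such hairpins were. Over the 70 hairpins, Spearman's correlation of PD40 tags with the log2 change was 0.48 at PD45 and 0.27 at PD50, then -0.07 at PD55 and -0.60 at PD60. Over all hairpins it was 0.50, 0.33, -0.01 and -0.40. The PD40 count enters both measures, so these values are descriptions only.

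CHD1 and CHD2 remodel and space nucleosomes on transcribed genes, and the chromodomains of CHD1 bind histone H3 methylated at lysine 4. Their 10 hairpins held some of the highest starting levels of the set and had a PD60 median of -6.92, the lowest of the 6 subgroups on column totals and with TMM, but not with DESeq2, where the MTA genes were lowest, nor from PD45, where CHD1L was. The earlier medians were -2.53 at PD45, -4.86 at PD50 and -5.55 at PD55. At PD60, 3 of the 10 were at 0. Of all hairpins 44.1% were at 0 there, and 16.9% of those that began at or above the library median. With the floor, the PD60 median was -8.37. These 10 hairpins began at a median of 281 CPM. All hairpins at or above the library median at PD40 had a PD60 median of -6.90, or -8.11 with the floor. The part the starting level had was not tested.

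CHD1 TRCN0000021310, the most abundant hairpin of the set at PD40, had 735 CPM at PD40, 350 at PD45 and 111 at PD50, then 16.3 at PD55 and 1.09 at PD60. It was 675-fold lower at PD60 than at PD40 with a log2 change of -8.46, on 9 tags at PD60. Another hairpin against the same gene, TRCN0000021311, had 442, 460, 190, 23.1 and 10.0 CPM over the same times. It was 44.0-fold lower at PD60, and became 2.55-fold higher with TMM and 2.72-fold higher with DESeq2. The mean over the 5 CHD1 hairpins was -6.47 (SD 1.21 over hairpins).

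CHD2 gave the widest spread between hairpins among the 14 genes at PD55, with an SD of 2.44 over its 5 hairpins. TRCN0000021338 had 346 CPM at PD40, 290 at PD45 and 268 at PD50, then 110 at PD55 and 31.4 at PD60. It was 11.0-fold lower at PD60 (PD60 to PD40 ratio 0.0797 to 0.103), although 10.2-fold higher with TMM and 10.9-fold higher with DESeq2, and its rank by abundance was 349 at PD60 against 690 at PD40. TRCN0000021337 began higher, at 644 CPM, and had 434, 136, 16.5 and 0.846 CPM at the later times. At PD60 TRCN0000021338 held 96.7% of CHD2 tags, 260 of 269. The other 4 hairpins against CHD2 had between 0 and 7 tags there, so the slow decline was seen in 1 hairpin of 5.

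CHD3, CHD4 and CHD5 are the motors of NuRD, CHD4 being the form most tissues use and CHD5 being found mainly in neurons and testis. Their 15 hairpins had medians of -1.57 at PD45 and -3.31 at PD50, then -5.06 at PD55 and -5.43 at PD60. At PD60, 7 of the 15 were at 0, where 44.1% of all hairpins were. With the floor, the PD60 median was -6.85. The PD60 means were -4.14 for CHD4 (SD 1.91), -5.49 for CHD3 (SD 1.19) and -6.89 for CHD5 (SD 0.93). The order of CHD3 and CHD5 was not stable, with -2.39 for CHD3 and -2.40 for CHD5 under TMM and -3.55 for CHD3 and -3.00 for CHD5 under DESeq2. CHD3 also began lower, and its hairpins had 1 tag at PD60 against 2597 at PD40, where those of CHD5 had 22 against 10312.

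CHD4 had the highest mean of the 14 genes at PD50, PD55 and PD60, on column totals as with TMM, with DESeq2 and without the 50 most abundant hairpins in the totals. The mean over its 5 hairpins was -1.19 at PD45 and -1.83 at PD50, then -2.50 at PD55 and -4.14 at PD60, and with TMM and DESeq2 it was above 0 from PD50 on, with PD60 means of 1.52 with TMM and 1.32 with DESeq2. Among 631 genes with at least 3 hairpins, counted from the highest mean, CHD4 ranked 194 at PD45 and 80 at PD50, then 29 at PD55 and 74 at PD60. The median of the gene means was -4.61 at PD55 and -5.59 at PD60. CHD4's PD60 mean was 1.72 above the median of all hairpins on column totals, 3.39 above it with TMM and 3.82 above it with DESeq2.

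The CHD4 hairpins differed in timing. TRCN0000021359 kept its level to PD55, with 248 CPM at PD40, 212 at PD45 and 242 at PD50, then 212 at PD55 and 94.7 at PD60. At PD60 it was 2.62-fold lower than at PD40 (ratio 0.351 to 0.414), which became 42.9-fold higher with TMM, 45.7-fold higher with DESeq2 and 2.003-fold higher when the 50 most abundant hairpins were left out of the totals. Its rank by abundance was 962 at PD40, 783 at PD45 and 475 at PD50, then 273 at PD55 and 218 at PD60. On column totals it was the smallest loss among the 70 hairpins, and this 1 hairpin held 40.7% of their remaining tags.

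TRCN0000021361, also against CHD4, had 101, 89.2, 127, 50.5 and 0.605 CPM from PD40 to PD60. On column totals it was the only hairpin of the 70 with its highest level at PD50, and it was 167-fold lower at PD60. TRCN0000021360 had 157, 56.1, 19.6, 14.3 and 19.1 CPM. On column totals only this hairpin of the set rose from PD55 to PD60, among those with at least 10 tags in either column. The ratio was 1.34, on 158 tags at PD60 and 164 at PD55. Its PD60 level was 8.22-fold below PD40 on column totals, 13.7-fold above it with TMM and 14.6-fold above it with DESeq2. Of the remaining hairpins, 1 was 36.6-fold lower (3.07-fold higher with TMM and 3.27-fold higher with DESeq2), and the other was at 0, at least 116-fold lower. With 983 of 1924 tags, CHD4 supplied 51.1% of all CHD and NuRD tags at PD60, against 6.71% at PD40.

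CHD3 and CHD5 hairpins left almost nothing at PD60. For CHD3, 4 of 5 were at 0 and the other, TRCN0000107974, had 1 tag against 158 at PD40 (ratio 0.000166 to 0.0373). The CHD3 hairpins began at a median of 362 tags. Of all hairpins 44.1% were at 0 at PD60, and 71.4% of those that began below the library median. Another CHD3 hairpin was above its starting level at PD45, at 65.5 against 42.0 CPM, and was at 0 at PD60. For CHD5, TRCN0000021798 had 591 CPM at PD40, 616 at PD45 and 248 at PD50, then 44.3 at PD55 and 1.81 at PD60, a 326-fold loss. It held 86.8% of CHD5 tags at PD45, when the other 4 hairpins had log2 changes between -2.25 and -5.84. CHD5 ranked 596 of 631 genes at PD45 and 579 at PD60.

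CHD6, CHD7, CHD8 and CHD9 form a further subfamily. CHD7 acts at enhancers, and its loss of function causes CHARGE syndrome. CHD8 restrains beta-catenin targets and is a frequent target of mutations in autism. Their 20 hairpins had medians of -1.66 at PD45 and -3.62 at PD50, then -5.10 at PD55 and -5.65 at PD60, or -6.83 with the floor. At PD45, 2 were over 2-fold higher, 13 over 2-fold lower and 5 in between. Of all hairpins, 5.73% were over 2-fold higher and 63.2% over 2-fold lower there. At PD60, 8 of the 20 were at 0, where 44.1% of all hairpins were.

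The clearest early enrichment was CHD7 TRCN0000016408. It had 471 CPM at PD40, 2948 at PD45 and 748 at PD50, then 306 at PD55 and 33.7 at PD60. At PD45 it was 6.25-fold above PD40 (6.05 to 6.46), it ranked 48 in the library against 485 at PD40, and it held 30.1% of the tags of the 70 hairpins. Without it their share of PD45 tags was 0.685%. On column totals the hairpin was 1.59-fold above PD40 at PD50, 1.54-fold below it at PD55 and 14.0-fold below it at PD60. At PD60 it was instead 8.05-fold above PD40 with TMM and 8.58-fold above it with DESeq2. Whether the increase lasted thus depended on the scaling.

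The other 4 CHD7 hairpins were all over 2-fold lower at PD45, between -1.15 and -2.52 on the log2 scale. Of all hairpins, 63.2% were over 2-fold lower there. TRCN0000016409 had 181, 81.1, 56.5, 51.6 and 6.05 CPM from PD40 to PD60, so it changed little between PD50 and PD55. It was 29.9-fold lower at PD60, and 3.76-fold higher with TMM and 4.01-fold higher with DESeq2. The mean over the gene was -1.01 at PD45 with an SD of 2.12 (0.20 with TMM), and -5.10 at PD60 with an SD of 1.10. The spread between hairpins thus exceeded the mean at PD45.

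CHD6 TRCN0000107417 began low, at 40.5 CPM, and had 136 CPM at PD45 and 75.7 at PD50, then 12.0 at PD55 and 0.242 at PD60. It was 3.36-fold above PD40 at PD45 (2.98 to 3.80) and 1.87-fold above it at PD50, and 2 tags remained at PD60. A second CHD6 hairpin, TRCN0000107419, had 252 CPM at PD45 against 177 at PD40 and was 293-fold lower at PD60. The other 3 hairpins were below PD40 at PD45. The CHD6 mean ranked 76 of 631 genes at PD45, with -0.61 (SD 1.74), which turned to 0.55 with TMM and 0.26 with DESeq2, and 281 at PD60, with -5.46.

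On column totals CHD9 had 3 of 5 hairpins above PD40 at PD45, more than any other gene of the set. Of the 70 hairpins 11 were above PD40 there, and 612 of 3420 measured over the library. The counts per gene were not made under other scalings. TRCN0000108085 had 733 CPM at PD40, 1264 at PD45 and 532 at PD50, then 103 at PD55 and 6.29 at PD60. The ratios of the 3 hairpins at PD45 were 1.93, 1.72 and 1.21, all short of 2-fold. The summed CHD9 level was 1.51-fold above PD40 at PD45 and 111-fold below it at PD60, where TRCN0000108085 was 117-fold lower on column totals, with a PD60 to PD40 ratio of 0.964 with TMM and 1.03 with DESeq2. The remaining 2 CHD9 hairpins, which began at 183 and 388 tags, were at 0 at PD50 and at PD60.

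CHD8 showed no such early excess. All 5 hairpins were over 2-fold lower at PD45, where 63.2% of all hairpins were. The CHD8 mean was -2.80 at PD45 (SD 1.12), and the gene ranked 581 of 631 genes at PD45 and 611 at PD50. At PD60, 3 of the 5 were at 0, where 44.1% of all hairpins were, and TRCN0000016511 held 27 of 28 tags. That hairpin had 187 CPM at PD40, 21.3 at PD45 and 13.3 at PD50, then 10.1 at PD55 and 3.26 at PD60, so its largest step came first. It was 57.4-fold lower at PD60, and 1.96-fold higher with TMM and 2.09-fold higher with DESeq2.

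CHD1L (also called ALC1) is a remodeller that lacks chromodomains and is switched on by poly(ADP-ribose) at DNA breaks. Its 5 hairpins had the highest median of the 6 subgroups at PD45, -0.90, and at PD50, -2.04, which turned to 0.19 and 0.67 with TMM. At PD55 it was -3.81 and at PD60 -5.32, or -6.35 with the floor. TRCN0000013471 had 140 CPM at PD40, 281 at PD45 and 86.7 at PD50, then 9.04 at PD55 and 2.54 at PD60. Its ratio at PD45 was 2.01 (1.87 to 2.15), at the edge of the 2-fold limit, and at PD60 it was 55.1-fold lower, or 2.04-fold higher with TMM and 2.18-fold higher with DESeq2. TRCN0000013470 stayed near its start for longer, with 358, 345, 213, 32.5 and 0.725 CPM. The 2 hairpins that began lowest, at 107 and 305 tags, were at 4 and 8 tags by PD45.

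The scaffold and methyl-CpG-binding-domain subunits declined early. Of the 20 hairpins against MTA1, MTA2, MTA3 and MBD3, 18 were over 2-fold lower at PD45 and 20 at PD50. The 50 hairpins against the CHD genes had 31 and 40. The medians at PD45 were -2.83 for the 20 and -1.66 for the 50. With TMM they were -1.32 and -0.51, and 13 of 20 and 20 of 50 were over 2-fold lower. The 20 also began lower, with a median of 385.5 tags at PD40 against 1111.5 for the CHD genes, and the part this had in the difference was not tested. Among hairpins below the library median at PD40, 16 of 16 against the MTA and MBD3 genes were over 2-fold lower at PD45, and 17 of 23 against CHD genes, where 80.3% of all such hairpins were. At or above that median they were 2 of 4 and 14 of 27, where 46.5% of all were.

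MTA1, MTA2 and MTA3 are alternative scaffolds that recruit and activate HDAC1 and HDAC2. Their 15 hairpins had medians of -2.78 at PD45 and -4.62 at PD50, then -4.93 at PD55 and -5.66 at PD60, or -7.10 with the floor. At PD60, 11 of 15 were at 0 and the other 4 had 8 tags in all. Of all hairpins 44.1% were at 0 there, and 71.4% of those that began below the library median.

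MTA1 held the exceptions. Of its hairpins, 1 was above PD40 at PD45, with 155 against 125 CPM, and reached 0 only at PD60. TRCN0000013358, the most abundant at the start, had 276 CPM at PD40, 194 at PD45 and 36.9 at PD50, then 1.74 at PD55 and 0 at PD60, at least 762-fold lower. TRCN0000013361 had 1.89 CPM at PD50, on 16 tags, and 1.65 CPM at PD55, on 19 tags of a larger column total. It had 3 tags at PD60. The MTA1 mean was -6.04 at PD60 (SD 1.53).

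MTA2 hairpins lost tags fastest of the 14 genes. The mean was -3.46 at PD45 (SD 1.22), rank 627 of 631 genes, and -5.19 at PD50 (SD 0.72), again rank 627. Its summed level was 12.5-fold lower at PD45 than at PD40. TRCN0000013377 had 168 CPM at PD40 and 2.96 at PD45, followed by 1.53, 0.869 and 0, and was at least 464-fold lower at PD60. The 5 hairpins ranged from -2.28 to -5.42 at PD45, so all 5 shared the early decline. By PD60 the rank was 383, with 3 tags left in 1 hairpin.

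MTA3 had all 5 hairpins at 0 at PD60, the only gene of the 14 in that state. All 5 began below the library median at PD40, where 71.4% of all such hairpins were at 0 at PD60. Their starting levels were 23.4 to 92.6 CPM, and the bounds at PD60 ran from at least 64.6-fold to at least 255-fold lower. The MTA3 mean was -2.43 at PD45 (SD 1.21) and -5.52 at PD60 (SD 0.95).

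MBD3 is the subunit that distinguishes one form of NuRD from the form built on MBD2. All 5 MBD3 hairpins began below the library median, between 54 and 870 tags, and all 5 were over 2-fold lower from PD45 onward. Of all hairpins below that median, 80.3% were over 2-fold lower at PD45 and 98.9% at PD60. The mean was -2.83 at PD45 (SD 0.85), the smallest spread between hairpins of the 14 genes at that time. MBD3 ranked 583 of 631 genes at PD45 and 140 at PD60, with a PD60 mean of -4.76 (SD 1.34). Low starting counts bound this mean: TRCN0000017357, with 54 tags at PD40 and 0 from PD45 onward, fell by 2.86 on the log2 scale, the most that its start allowed. TRCN0000017354, the most abundant of the 5, had 101 CPM at PD40, 6.60 at PD45 and 1.65 at PD50, then 0.261 at PD55 and 0.242 at PD60, on 2 tags in the last column (ratio 0.000290 to 0.00869).

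Few hairpins still carried the set at PD60. The 4 hairpins with at least 100 tags held 1480 of 1924 tags, or 76.9%, and they targeted CHD4, CHD7, CHD2 and CHD4 again. The 14 hairpins with at least 10 tags targeted 8 genes, all of the CHD group, and none targeted MTA or MBD3. All 14 came from the 31 hairpins at or above the library median at PD40, where 49.8% of all such hairpins had at least 10 tags at PD60, and 7.32% of all hairpins below that median had. Of the 20 MTA and MBD3 hairpins 16 began below it, so their absence is no result about these genes. The CHD genes therefore held all but 15 of the tags. On column totals, 58 of the 70 hairpins had their highest level at PD40, 11 at PD45, 1 at PD50 and 0 at PD55 or PD60. Of all hairpins, 80.4% peaked at PD40, 12.0% at PD45 and 3.98% at PD50, then 1.74% at PD55 and 1.95% at PD60. Peaks were not counted with TMM or DESeq2, which raise the late levels.

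The non-targeting control hairpin gave a second yardstick. It had 529 CPM at PD40, 202 at PD45 and 78.9 at PD50, then 11.6 at PD55 and 4.72 at PD60, and was 112-fold lower at PD60 on column totals, with a ratio of 1.00 with TMM and 1.07 with DESeq2. At PD45, 24 of the 70 hairpins had a log2 change above its own, or 34.3%, against 44.7% of all hairpins. At PD50 it was 31.4% against 39.3%, at PD55 65.7% against 61.4%, and at PD60 68.6% against 65.7%. A single control hairpin with no replicate sets this line, so no effect size is drawn from it.

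The other NuRD subunits and partners in the library declined less than the 70 hairpins in the early columns, and single hairpins carried most of their tags at PD60. Of 9 genes listed, 7 had hairpins, 35 in all: HDAC1, HDAC2, RBBP4, RBBP7, MBD2, ZMYND8 and AOF2, the older name of the histone demethylase KDM1A. Their median was -1.10 at PD45, where the 70 had -2.27, and -3.18 at PD50, where the 70 had -4.05, and 19 of 35 were over 2-fold lower at PD45. They began at a median of 1476 tags, where the 70 began at 870.5, and the part this had in the difference was not tested. At PD60 on column totals, 3 were over 2-fold higher and 31 over 2-fold lower, with a median of -6.05. Of all hairpins, 2.28% were over 2-fold higher and 95.3% over 2-fold lower at PD60, and 63.2% over 2-fold lower at PD45. These 35 hairpins were not counted under other scalings. Their share of tags was 0.993% at PD40 and 4.40% at PD60, opposite to the decline of the CHD and NuRD set, and 231551 of their 363873 tags at PD60 came from 1 HDAC2 hairpin. AOF2 held the other 2 hairpins that were over 2-fold higher.

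HDAC1 TRCN0000004818 had 561 CPM at PD40, 631 at PD45 and 631 at PD50, then 770 at PD55 and 945 at PD60. The other 4 HDAC1 hairpins were over 2-fold lower at PD60, and the gene's mean was -5.18 (SD 3.33). On column totals HDAC1 TRCN0000004814 peaked at PD45, as CHD7 TRCN0000016408 did, with 217, 1742, 920, 241 and 1.09 CPM. For MBD2, the alternative to MBD3, 5 of 5 hairpins were at 0 at PD60, and for the histone-binding subunit RBBP4 it was 4 of 5. The hairpins of both genes all began below the library median at PD40, where 71.4% of all such hairpins were at 0. ZMYND8, a reader that partners NuRD at damaged DNA, had a mean of 0.62 at PD45 (SD 0.71) and -4.83 at PD60. At PD45 the means of MBD3, MTA1, MTA2 and MTA3 were all between -2.28 and -3.46.

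Hairpins against other remodellers gave these values beside the set. The 75 SWI/SNF hairpins, 74 of them measured, had a median of -1.70 at PD45 and -5.71 at PD60, with 4 over 2-fold higher and 64 over 2-fold lower at PD60. Their share of tags was 4.88% at PD60 against 4.43% at PD40, unlike that of the CHD and NuRD set, and 1 hairpin had 225105 tags at PD60. The 76 hairpins against the ISWI, INO80, SRCAP and HELLS group had -1.59 at PD45 and -5.84 at PD60, with 0 higher and 75 lower at PD60, and a share of 0.0618% at PD60 against 1.89% at PD40. Of all hairpins, 2.28% were over 2-fold higher and 95.3% over 2-fold lower at PD60. The PD45 median of the CHD genes, -1.66, lay between those of the other remodellers, and that of the MTA and MBD3 genes, -2.83, lay below both. The lists began at unlike levels. Median tags at PD40 were 385.5 for the MTA and MBD3 hairpins, 929 for SWI/SNF and 979.5 for the ISWI, INO80, SRCAP and HELLS group. The part this had in the difference was not tested.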

How the data were processed

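Genomic DNA of 50 samples, 10 plates at each of 5 population doublings, was grouped by the labels. The authors deposited whole-number counts of tags, per the file headers, in a single column for each doubling. The submitters' processing notes list Bowtie 1.0.1. Neither its settings nor the way plates were joined is stated in the labels, so each column was treated as pooled. Columns held 8270745 to 11505688 tags. Since PCR tags carry no molecular identifiers, the intervals and floors describe counting error alone.

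Counts were scaled to CPM by column totals, and log2 changes used a pseudocount of 1 where either column had 10 counts or more. Called means over 2-fold. Ratios carry exact 95% conditional binomial intervals, and the floor was 3 counts. Gene values are means over hairpins, with the SD over hairpins. All hairpins include the 70 described, and all 14 gene names are current symbols in RefSeq GRCh38.p14. Named hairpins were drawn from the highest and lowest PD60 hairpin of each gene and those over 2-fold higher at any time. They were also drawn from the 3 most abundant at each time and the 3 highest in each step. Not every hairpin of these kinds is named. CHD8 TRCN0000016511 and hairpins outside the 14 genes were chosen after their values were seen. The members and the gene lists were chosen with earlier results of these data known. Hairpin sequences were not used here.

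Alternatives covered scaling (TMM in edgeR 4.0.16, size factors in DESeq2 1.42.0, totals without the 50 most abundant hairpins), pseudocounts, count minimums, start and end columns and left-out hairpins. Software versions were R 4.3.3, Python 3.11.15, scipy 1.17.1, pandas 2.3.3 and numpy 2.4.6. The calculation was tested on simulated data.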

Additional observations from a re-analysis of the deposited data

How the results depend on the processing

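No paired analysis was possible because the authors' columns join the 10 plates of a doubling, so the spread between plates was not measured, and at PD60 most of these hairpins were within a few counts of 0. The median PD60 log2 change of the 70 hairpins, -5.59, stayed negative under every alternative run: -1.86 with TMM, -2.55 with DESeq2 size factors, -6.41 and -3.35 with pseudocounts of 0.5 and 10, -4.07 from PD45, -2.27, -4.05 and -5.06 with PD45, PD50 and PD55 as the end, -6.85 with counts under 3 raised to 3 and -6.75 for hairpins at or above the library median at PD40, the last 2 and the PD45 and PD50 ends being chosen after seeing the data. The count over 2-fold higher, 0, became 7 with TMM, 9 with DESeq2 and 3 at PD45, and the count lower, 70, became 46 with TMM. The PD60 share of tags was 0.0138% without the most abundant hairpin and 0.148% of totals without the 50 most abundant, and the PD45 share was 0.685% without its most abundant hairpin.

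Subgroup medians also stayed negative. With TMM and then DESeq2 they were -2.58 and -2.55 for CHD1 and CHD2, -2.24 and -2.65 for CHD3 to CHD5, -1.21 and -1.70 for CHD6 to CHD9, -1.28 and -2.01 for CHD1L, -2.22 and -3.59 for the MTA genes, and -1.48 and -1.70 for MBD3. With a pseudocount of 10 they were, in that order, -4.27, -2.52, -3.52, -3.58, -2.58 and -2.14. From PD45 they were -3.66 for CHD1 and CHD2, -4.07 for CHD6 to CHD9, -3.43 for the MTA genes and -2.61 for MBD3. For CHD6 to CHD9 they were -6.36 with a pseudocount of 0.5 and -4.72 without the 50 most abundant.

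Among the gene means and the hairpins drawn as described above, directions that reversed were those of scaling. Hairpins not drawn that way also passed a ratio of 1 with TMM and DESeq2. Examples were CHD4 TRCN0000021362, at 3.07 and 3.27, and CHD8 TRCN0000016511, at 1.96 and 2.09. The CHD4 mean became 1.52 with TMM and 1.32 with DESeq2. PD60 to PD40 ratios, TMM then DESeq2, became 2.55 and 2.72 for CHD1 TRCN0000021311, 1.29 and 1.37 for CHD1 TRCN0000021312, 2.04 and 2.18 for CHD1L TRCN0000013471, 10.2 and 10.9 for CHD2 TRCN0000021338, 42.9 and 45.7 for CHD4 TRCN0000021359, 13.7 and 14.6 for CHD4 TRCN0000021360, 8.05 and 8.58 for CHD7 TRCN0000016408, and 3.76 and 4.01 for CHD7 TRCN0000016409. For CHD4 TRCN0000021359 it was 2.003 without the 50 most abundant, and for CHD9 TRCN0000108085 it was 1.03 with DESeq2. These scalings raise every late ratio, the TMM factor being 8.71 at PD40 and 0.0775 at PD60.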

Other observations

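Hairpins against the MBD3-like genes fell outside the 70 and were looked at after their values were seen. MBD3L2 to MBD3L5, paralogs of MBD3 that are near-identical to each other, share 5 hairpins that name several of these genes. Of the 5, TRCN0000016155 had 169 CPM at PD40, 257 at PD45 and 636 at PD50, then 712 at PD55 and 86.6 at PD60, a log2 change of 2.07 at PD55. The other 4 were below PD40 at every later time. MBD3L1 TRCN0000017343 had 91.2, 104, 94.5, 51.1 and 4.72 CPM at these times. The other 3 hairpins against MBD3L1 were 8.10-fold to 12.9-fold lower at PD45 and had 0 to 9 tags at PD50.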
